A study of Mus musculus with 3 samples.

Results

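The genes described here encode the protein subunits of the mitochondrial ribosome and of the respiratory chain with its ATP synthase. They were taken by symbol from the deposited gene table: mitoribosomal proteins (Mrpl and Mrps followed by a number), every Nduf gene, Sdha to Sdhd, the Uqcr genes, the nuclear Cox4 to Cox8 genes and the Atp5 genes. The rule found 161 of 15311 genes, 47 of the large and 29 of the small mitoribosomal subunit, 7 core and 28 accessory subunits of complex I with 4 of its assembly factors, 4 of complex II, 8 of complex III, 16 of complex IV and 15 of ATP synthase. Of the remaining 3, Atp5s and Atp5sl carry the name of ATP synthase without being structural subunits, and Cox4nb was matched by name alone. It is the head-to-head neighbour of Cox4i1 and is now called Emc8, a subunit of a complex of the endoplasmic reticulum. These 3 were left out of the complexes and kept in the counts over all 161. Genes were assigned to the mitoribosome by symbol alone, and whether each of them, such as Mrps36, is part of it was not checked. Of the 161 genes, 159 passed the filter on low counts (a mean CPM, counts scaled to library size, of at least 0.5). Cox4i2 and Cox7b2 did not.

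Messenger RNA selected with oligo(dT) from mouse embryonic stem (ES) cells was sequenced in 3 libraries. The K3R3 group (1 library) carried a histone H2A.Z whose C-terminal lysines 119, 120 and 123 were changed to arginine, fused to yellow fluorescent protein (YFP), and the wild-type group (2 libraries, here WT 1 and WT 2) carried unmutated H2A.Z fused to YFP. In both groups the transgene was driven by a CMV promoter switched on with doxycycline at 1 µg/ml, YFP-positive cells had been sorted, and a lentiviral hairpin against the endogenous H2A.Z transcript was present. The labels give the strain as V6.5 (129SvJaexC57BL/6) and the transgenic lines as derived from KH2 ES cells, which had been kept on irradiated feeder fibroblasts until the final passage. Which of the listed hairpins each library carried is not stated. Nor is it stated whether WT 1 and WT 2 were separate cultures, so the p-values below measure only how these samples vary, and that may be technical. K3R3 had no replicate. Directions depend on the names of the deposited count columns.

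Mitochondrial ribosomes translate the few proteins encoded by mitochondrial DNA, all of them parts of the respiratory chain or ATP synthase. Complex I oxidises NADH, complex II oxidises succinate, complex III passes electrons from ubiquinol to cytochrome c and complex IV passes them to oxygen. ATP synthase uses the resulting proton gradient to make ATP. All genes considered here lie in the nucleus, and the mitochondrial proteins among their products are imported. The subunits of complexes I, III and IV and of ATP synthase are assembled with mitochondrially encoded subunits, which were not analysed here. ES cells in culture rely strongly on glycolysis.

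The cells' defining markers were present. All 6 ES cell markers (Pou5f1, Nanog, Sox2, Zfp42, Esrrb and Dppa5a) were measured, with a summed level of 2623 CPM in K3R3, against 4042 and 3127 CPM in WT 1 and WT 2. Of 7 feeder fibroblast markers 5 were measured, summing to 57.9 CPM in K3R3 and to 35.2 and 46.7 CPM in WT 1 and WT 2. Of 6 striated muscle markers 5 were measured, at 4.30 CPM together in K3R3 against 5.04 and 2.90 CPM in the wild-type libraries. Germ cell markers, 3 of 5 measured, summed to 204 CPM in K3R3 against 142 and 169 CPM. Postn, Lum, Myl2, Tnp1 and Prm1 were not analysed here. The libraries held 24718223 counts in K3R3, 21614693 in WT 1 and 25426228 in WT 2. A chi-square over genes gave 24.3 per degree of freedom between WT 1 and WT 2, well above counting noise, and they were kept as separate samples. In bulk RNA, fewer cells of a type and less RNA per cell cannot be told apart.

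Short stretches of the promoters are shown first, with motifs that are textbook features of many nuclear genes for mitochondrial proteins. Each motif was found in a minority of the set. Promoters of 139 of the 161 genes were found in RefSeq (build GRCm38.p6, 250 bases before to 50 after each annotated start). The motif bound by the factor NRF1, the capitals of the Atp5g2 line below with any base at the fifth place, stood on either strand in the promoters of 29 of these 139 genes (20.9%), against 10.4% of the 11730 genes of the whole table with a promoter and 4.60% of all 32851 promoters of that length. The letters CTTCCGG, the core of sites for ETS factors such as GABP, stood on either strand in 41 (29.5%), against 18% of genes in the table and 8.86% of all promoters. The motif bound by YY1, the capitals of the Mrps18a line below, stood on either strand in 10 (7.19%), against 1.58% and 0.633%. Counted by gene, as in the set, the shares over all 27025 genes with a promoter were 5.19% (NRF1), 9.93% (ETS) and 0.755% (YY1). Each motif was searched separately, and the letters of none contain those of another. Each sequence below is written along the gene's own strand with the motif in capitals, and the genes are among those named in the results on levels, isoforms or differences from wild type.

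Atp5g2, NRF1 letters on both strands, chr15:102671072-102671097, minus strand: ctccggccGCGCATGCGCagagcctt
Cox6a1, NRF1 letters on both strands, chr5:115349103-115349128, minus strand: ggaacgggGCGCATGCGCgctctcgc
Ndufa11, NRF1 letters on both strands, chr17:56717694-56717719, plus strand: tgcactgcGCGCATGCGCgcacgcct
Ndufb4, NRF1 letters on the opposite strand, chr16:37654373-37654398, minus strand: tcatatccGCGCAGGCGCagatgtgc
Sdha, NRF1 letters on the opposite strand, chr13:74350233-74350258, minus strand: gactcggtGCGCAAGCGCagtctgtc
Cox6b1, ETS letters, chr7:30626127-30626151, minus strand: ctctcgcagCTTCCGGccagtcgga
Cox8a, ETS letters, chr19:7217606-7217630, minus strand: tccgaaataCTTCCGGctcgggcgt
Mrps18a, YY1 letters, chr17:46111008-46111032, plus strand: gcgttccAAGATGGCGGCcctcagg
Ndufs4, YY1 letters, chr13:114388045-114388066, minus strand: ctacaggAAGATGGCGGCggtc
Ndufs7, YY1 letters, chr10:80249466-80249490, plus strand: cgaggccAAGATGGCGGCgctggcg

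The capitals of Atp5g2, Cox6a1 and Ndufa11 read the same on both strands. They began at position -42 in Atp5g2, -162 in Cox6a1 and -60 in Ndufa11, counted from 0 at the annotated start. Ndufb4 and Sdha each held the NRF1 letters at 3 places, of which the one nearest the start is printed. In 9 of the 10 genes with the YY1 letters a match lay after the annotated start, beginning at position 11 in Mrps18a, 35 in Ndufs4 and 24 in Ndufs7. Of the 185 genes of the table with the YY1 letters, 127 (68.6%) had a match after the start. A match describes the letters in this window and nothing about binding in these cells.

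The genes also shared a chromatin class. The deposited class code, which per the file header comes from an earlier study, called 159 of the 161 active in ES cells and 0 bivalent, and 2 (Mrps6 and Cox7b2) had no class. Of all genes in the deposited data, 75.4% were active and 12.9% bivalent. Expression differed widely between complexes. Levels between genes are given as the deposited RPKM (reads scaled to gene length and library total), which divides by gene length. The median gene of ATP synthase stood at 101 RPKM in K3R3, against 132 and 94.5 RPKM in WT 1 and WT 2, and the median gene of complex IV at 85.5 RPKM against 101 and 80.9 RPKM. Complexes II and III followed with medians of 69.3 and 69.4 RPKM in K3R3, where WT 1 had 72.6 and 68.2 RPKM and WT 2 had 69.4 and 68.7 RPKM. The ranges of complexes II and III over the libraries overlapped. ATP synthase stood above complex IV within each library, but its median in WT 2 was below that of complex IV in WT 1. The median of complex IV counts its 4 lowest genes, the tissue-restricted isoforms Cox4i2, Cox7b2, Cox7a1 and Cox6b2. In K3R3 and WT 2 the order of complex IV and ATP synthase depends on counting them. Core subunits of complex I had a median of 33.8 RPKM in K3R3 against 33.5 and 32.6 RPKM, and accessory subunits 35.5 RPKM against 42.9 and 39.9 RPKM.

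The mitoribosome was lower than any of these complexes in each library. Its large subunit had a median of 21.9 RPKM in K3R3, against 21.6 and 21.4 RPKM in WT 1 and WT 2, and its small subunit 23.4 RPKM against 22.2 and 22.3 RPKM. Assembly factors of complex I, which act in building the complex and are no part of it, had the lowest median, at 15.0 RPKM in K3R3 against 13.4 and 15.1 RPKM. Together the 161 genes took 1.39% of all counts in K3R3 (Wilson 95% interval 1.39% to 1.40%, counting error only), against 1.52% (1.52% to 1.53%) in WT 1 and 1.44% (1.44% to 1.45%) in WT 2. ATP synthase alone took 0.498% in K3R3 against 0.575% and 0.542%. The 76 mitoribosomal genes took 0.373% in K3R3 against 0.372% and 0.361%.

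**Figure D1:**
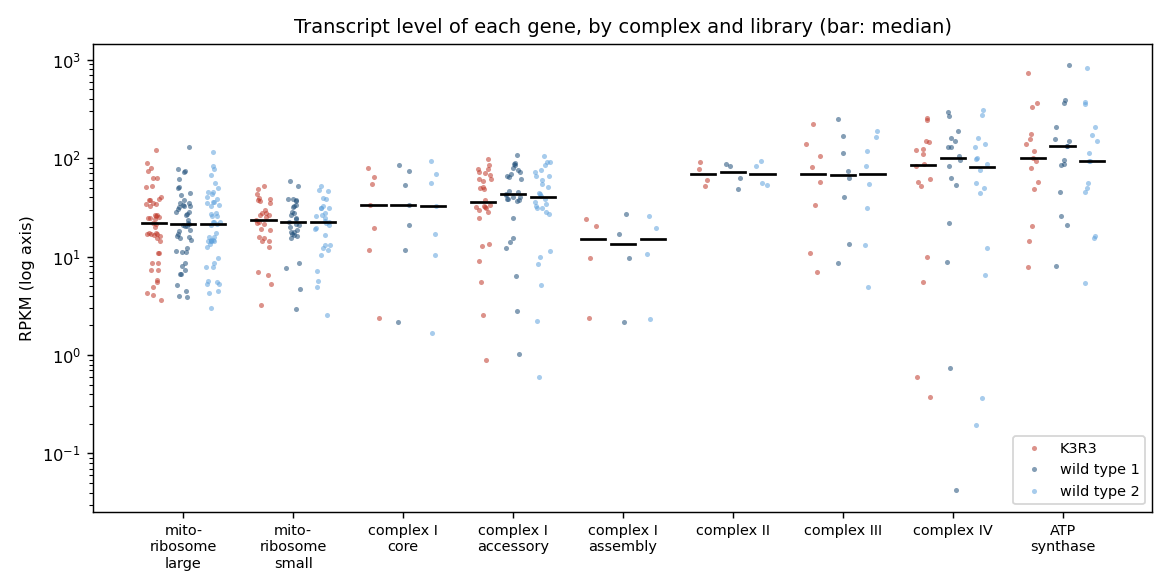
Deposited RPKM on a log axis of every gene (points) with the median (bar) for each complex in K3R3, wild type 1 and wild type 2. With the tissue-restricted isoforms of complex IV counted, ATP synthase had the highest medians (101, 132 and 94.5 RPKM). Complex I assembly factors had the lowest (15.0, 13.4 and 15.1 RPKM), and single genes of complex I, complex IV and ATP synthase lay far below the rest of their complex.

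Within a complex, transcript levels spanned a wide range although the subunits are built in together. ATP synthase ran from Atp5d, the delta subunit of the central stalk, at 7.81 RPKM in K3R3 against 7.96 and 5.40 RPKM, to Atp5b, the catalytic beta subunit, at 737 RPKM in K3R3 against 880 and 827 RPKM. The ratio of these means was 115. Atp5a1, the alpha subunit that alternates with beta in the ring, stood at 328 RPKM in K3R3 against 365 and 357 RPKM, and the gamma subunit Atp5c1 at 140 RPKM against 150 and 151 RPKM. Complex II was the exception, with its lowest and highest members 1.76-fold apart: the iron-sulfur subunit Sdhb stood at 52.2 RPKM in K3R3 against 48.6 and 53.8 RPKM, and the membrane anchor Sdhd at 92.3 RPKM against 86.8 and 93.6 RPKM. The flavoprotein Sdha (78.0 RPKM in K3R3 against 82.4 and 83.1 RPKM) and the other anchor Sdhc (60.6 RPKM against 62.7 and 55.7 RPKM) lay between them.

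Complex I had a 41.5-fold range among its core subunits. Ndufv2, an iron-sulfur subunit of the NADH-oxidising arm, led with 79.1 RPKM in K3R3 against 84.6 and 94.1 RPKM. The large core subunit Ndufs1 stood at 54.4 RPKM in K3R3 against 53.4 and 56.2 RPKM. Ndufs3 stood at 33.8 RPKM in K3R3 against 33.5 and 32.6 RPKM, and Ndufv1, which binds NADH, at 19.4 RPKM against 21.04 and 17.1 RPKM. Lowest were the subunits that carry iron-sulfur clusters towards ubiquinone, Ndufs8 at 11.8 RPKM in K3R3 against 11.5 and 10.3 RPKM and Ndufs7 at 2.40 RPKM against 2.14 and 1.67 RPKM. Among accessory subunits the range was 123-fold, from Ndufa11 (0.897 RPKM in K3R3 against 1.04 and 0.593 RPKM) to Ndufb9 (98.0 RPKM against 107 and 106 RPKM). This range depends on the deposited length of Ndufa11, 2661 bases, where its longest annotated coding transcript has 918 bases. Without division by length Ndufb7 was lower, with a mean of 2.02 CPM over the libraries against 3.36 CPM for Ndufa11. The assembly factors ran from Ndufaf3 (2.37 RPKM in K3R3 against 2.18 and 2.32 RPKM) to Ndufaf2 (24.4 RPKM against 26.8 and 26.0 RPKM).

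In complex III the hinge protein gene Uqcrh led with 222 RPKM in K3R3 against 250 and 187 RPKM. The small subunit Uqcr11 was lowest, at 6.97 RPKM in K3R3 against 8.57 and 4.95 RPKM. The core proteins Uqcrc1 (57.0 RPKM in K3R3 against 63.0 and 54.4 RPKM) and Uqcrc2 (105 RPKM against 112 and 117 RPKM) and the Rieske iron-sulfur protein Uqcrfs1 (81.8 RPKM against 73.4 and 83.0 RPKM) lay between them. In complex IV, Ndufa4, named for complex I but now counted as a complex IV subunit, was highest at 258 RPKM in K3R3 against 294 and 275 RPKM. Cox5a (242 RPKM in K3R3 against 270 and 312 RPKM) and Cox5b (52.0 RPKM against 62.5 and 43.9 RPKM) are both part of the nuclear-encoded shell of the enzyme. In the mitoribosome Mrpl42 (121 RPKM in K3R3 against 130 and 117 RPKM) and Mrps18c (52.0 RPKM against 52.6 and 52.0 RPKM) were highest. Mrpl23 (3.59 RPKM in K3R3 against 3.89 and 2.98 RPKM) and Mrps11 (3.25 RPKM against 2.97 and 2.52 RPKM) were lowest.

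The level of a gene moved with the GC content of its longest annotated coding transcript. That transcript can differ in length from the deposited gene, as in Atp5g1 with 4715 against 805 bases. The 25 genes under 10 RPKM had a median GC content of 56.8%, and the 20 genes at 100 RPKM or more had 50.1%. Across the 159 tested genes Spearman's rho between GC content and mean RPKM was -0.31, and across all 13693 tested genes with a transcript it was -0.27. These are correlations across genes of the same 3 libraries, and genes are not independent replicates. The lowest genes of the 9 groups had GC contents between 51.6% (Mrpl23) and 59.6% (Ndufs7). The highest genes had between 42.0% (Ndufv2) and 55.4% (Ndufb9), with 51.6% in Atp5b, so the ranges overlapped. The part of GC content in the level was not tested.

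Sequence shared with other genes may also touch these levels, and its part in a single gene's level was not tested. Of the 161 genes, 35 shared at least 25% of their 31-base words with transcripts of other genes, among them pseudogenes and overlapping neighbours, and 49 shared none. The share was highest in Mrpl53, at 100%. Other examples were 85.4% for Atp5l, 67.6% for Mrpl23, 58.2% for Uqcrb, 55.02% for Ndufs3, 47.1% for Cox5a and 38.3% for Ndufb4. The levels of such genes are uncertain where the counting could split or drop shared reads. Without the 35 genes the median mean RPKM was 46.6 in complex III, against 68.8 with them. Cox4nb and its neighbour Cox4i1 moved together between the wild-type libraries. Cox4i1 shared 16.9% of its 31-base words with Emc8, the present name of Cox4nb, so the counts of both genes may not be independent. Cox4nb stood at 48.6 CPM in K3R3, against 64.0 and 40.8 CPM in WT 1 and WT 2, and Cox4i1 at 116 CPM against 158 and 104 CPM. WT 2 was 0.65 log2 units below WT 1 for Cox4nb and 0.61 for Cox4i1, while the fitted difference between K3R3 and wild type was -0.11 for Cox4nb and -0.18 for Cox4i1.

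Tissue-restricted isoforms were read at low levels beside their ubiquitous partners. Cox6b2, the testis isoform of a complex IV subunit that clamps the dimer, was the most abundant of them. It had 10.0 RPKM in K3R3, against 22.1 and 12.3 RPKM in WT 1 and WT 2, which was 6.40% of the family's RPKM in K3R3 against 12.0% and 8.19%, the rest being Cox6b1 (146 RPKM in K3R3 against 162 and 138 RPKM). The K3R3 library was the lowest of the 3 for Cox6b2, and the wild-type libraries differed more from each other than K3R3 did from WT 2. Cox7a1, the heart and skeletal muscle isoform, had 75 counts and 5.56 RPKM in K3R3, against 105 and 90 counts (8.78 and 6.47 RPKM). It made up 3.12% of its family in K3R3 against 4.54% and 3.99%. The ubiquitous Cox7a2 stood at 111 RPKM in K3R3 against 131 and 99.2 RPKM, and Cox7a2l, which helps join complexes III and IV into supercomplexes, at 62.1 RPKM against 53.0 and 56.6 RPKM.

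Cox7b2, another testis isoform, had 12 counts in K3R3 against 13 and 4. Cox4i2, the isoform known from lung and from hypoxic cells, had 10 counts in K3R3 against 1 and 10. No deposited count was below 1, so the WT 1 value of Cox4i2 stood at that floor and may not be exact. Relative to the pooled wild-type libraries the ratio of K3R3 was 1.24 for Cox7b2 (exact conditional 95% interval 0.542 to 2.76, counting error only) and 1.60 for Cox4i2 (0.610 to 4.15). Neither difference was detectable at this depth. Cox7b2 made up 0.477% of its family in K3R3 against 0.558% and 0.149%, and Cox4i2 0.309% against 0.0281% and 0.361%. The partners Cox7b and Cox4i1 stood at 125 RPKM in K3R3 (131 and 130 RPKM in WT 1 and WT 2) and at 121 RPKM in K3R3 (150 and 99.9 RPKM).

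ATP synthase has 3 genes for the c subunit of its proton-driven ring, whose mature proteins are the same. Atp5g3 made up 91.3% of their summed RPKM in K3R3, against 89.2% and 92.2% in WT 1 and WT 2. Atp5g1 stood at 20.3 RPKM in K3R3 against 25.7 and 16.02 RPKM, and Atp5g2 at 14.3 RPKM against 20.97 and 15.4 RPKM. Cox6a1, Cox8a, Ndufa4, Atp5l and Uqcrh were the measured members of their families, and their other isoforms (Cox6a2, Cox8b, Cox8c, Ndufa4l2, Atp5l2 and Uqcrhl) were not analysed here. The summed striated muscle markers, given above, were at most 5.04 CPM in any library. The summed germ cell markers were highest in K3R3, where Cox6b2 was lowest. Their part in these levels was not tested.

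**Figure D2:**
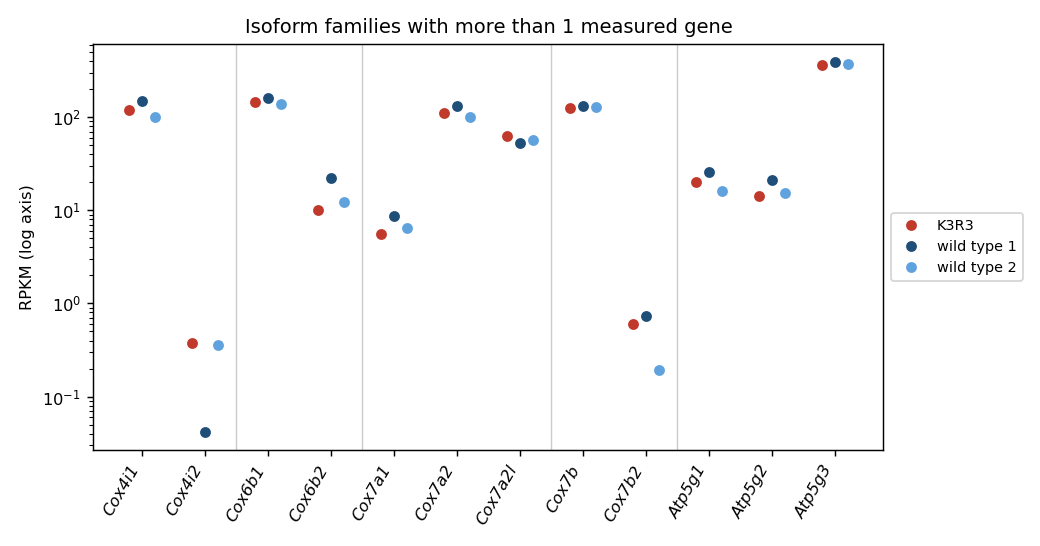
RPKM on a log axis of each measured gene in the isoform families with more than 1 measured gene, in K3R3, wild type 1 and wild type 2, with lines between families. Cox4i2 and Cox7b2 lay below 1 RPKM in each library, Cox7a1 between 5.56 and 8.78 RPKM and Cox6b2 between 10.0 and 22.1 RPKM, all below their ubiquitous partners.

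The series compares K3R3 with wild-type H2A.Z. No gene of the set was called different: 0 of the 159 tested genes passed the quasi-likelihood test of edgeR at 0.05 after Benjamini-Hochberg adjustment over all 13829 tested genes, where 2.57% of all tested genes were called (2.02% higher and 0.542% lower in K3R3). The smallest adjusted p of the set was 0.218. At an unadjusted p under 0.05 there were 4 genes, where 11.2% of all tested genes passed, and all 4 stood lower in K3R3, where 3.33% of all tested genes passed in that direction. DESeq2 called 0 of the 159, against 0.427% of all tested genes. The standard error of a gene's log2 difference had a median of 0.26 and ran from 0.16 to 0.62. The 95% interval of the difference lay within a 2-fold change either way for 145 of the 159 genes, so a 2-fold difference was outside the interval for these and inside it for the rest. These intervals rest on the spread of WT 1 and WT 2 (1 residual degree of freedom), shared over genes, and assume the same spread for K3R3. With infinite prior degrees of freedom, a gene's own agreement between WT 1 and WT 2 does not set its interval. WT 2 minus WT 1 was -0.02 for Ndufb4 and -0.60 for Mrps21, and both had an SE of 0.31.

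Levels between libraries are given from here as CPM normalised by the TMM method. The 4 genes with an unadjusted p under 0.05 were as follows. Cox6b2 had 7.80 CPM in K3R3 against 18.9 and 10.4 CPM in WT 1 and WT 2, which is -0.91 on the log2 scale (SE 0.37, edgeR adjusted p = 0.218). Atp5b had 1959 CPM in K3R3 against 2569 and 2379 CPM (log2 -0.34, SE 0.16, edgeR adjusted p = 0.350). Cox5a had 237 CPM in K3R3 against 290 and 331 CPM (log2 -0.39, SE 0.19, edgeR adjusted p = 0.416). Ndufs4, an accessory subunit of complex I named after its values were seen, had 69.0 CPM in K3R3 against 92.0 and 97.9 CPM (log2 -0.46, SE 0.23, edgeR adjusted p = 0.420). In each of the 4 the K3R3 library lay below both wild-type libraries. Atp5b, Cox5a and Ndufs4 stood farther from each wild-type library than those stood from each other, and Cox6b2 did not: its difference was -1.28 against WT 1 and -0.41 against WT 2, with -0.86 between WT 2 and WT 1.

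The other genes had larger unadjusted p-values. Among complex I genes Ndufb4 had the lowest difference, with 18.4 CPM in K3R3 against 26.8 and 26.5 CPM (log2 -0.54, SE 0.31, edgeR adjusted p = 0.582). Cox7a1 had 2.88 CPM in K3R3 against 5.00 and 3.63 CPM (log2 -0.58, SE 0.50), and Atp5g2 13.1 CPM against 21.1 and 15.3 CPM (log2 -0.47, SE 0.34). The lowest differences of the remaining groups were those of Mrpl54 (-0.45), Uqcrq (-0.41), Atp5sl (-0.36), Mrps28 (-0.32), Ndufv2 (-0.30), Ndufaf2 (-0.24) and Sdha (-0.21). The highest were those of Mrps18a (0.25), Mrpl47 (0.22), Ndufs7 (0.21), Atp5d (0.10), Cox7a2l (0.06), Ndufb10 (0.04) and Ndufaf1 (0.03), while no tested member of complexes II and III was above 0. Mrps18a had 23.3 CPM in K3R3 against 21.8 and 17.4 CPM, and Mrpl47 78.4 CPM against 60.7 and 74.0 CPM.

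The K3R3 level was below both wild-type libraries for 90 of the 159 genes (56.6%), where the share over all tested genes was 34.2%. It was above both for 11 (6.92%), where the share over all tested genes was 33.9%. Among accessory subunits of complex I 20 of 28 lay below both and 0 above, and among ATP synthase subunits 11 of 15 and 0. The mitoribosome was nearer the whole table, with 35 of 76 below both and 9 above. Under the library totals implied by RPKM, 53 of the 159 (33.3%) lay below both and 35 (22.0%) above, against 19.2% and 48.7% of all tested genes, so the split depends on the scaling.

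**Figure D3:**
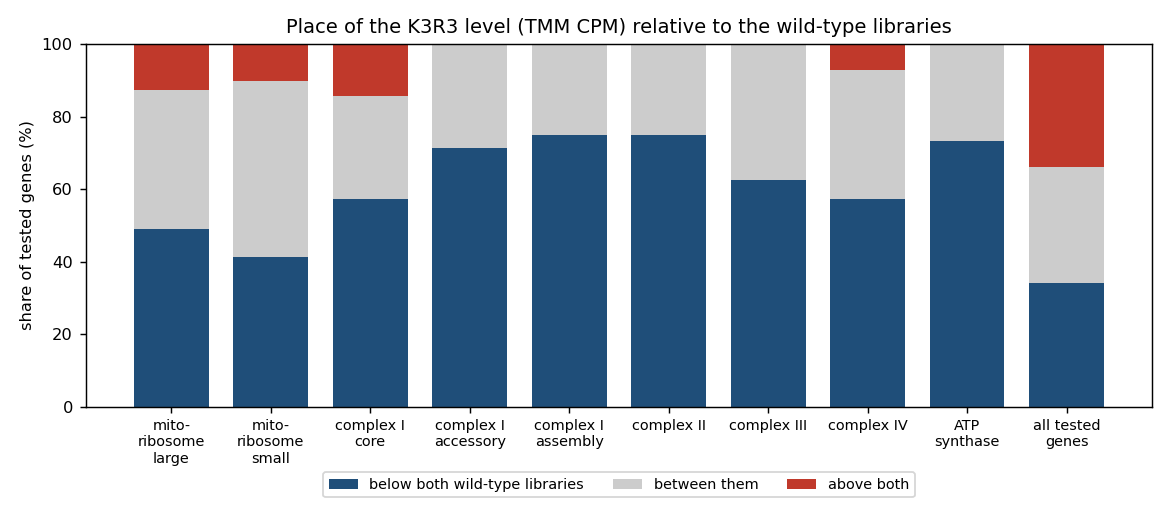
Share of tested genes whose K3R3 level in TMM CPM lay below both, between or above both wild-type libraries, by complex and for all 13829 tested genes at the right. All complexes have a larger share below both than the 34.2% of all genes, from 41.4% in the small mitoribosomal subunit to 3 of 4 genes in complex II and in complex I assembly, and a smaller share above both than 33.9%.

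The differences were small in size. The median fitted log2 difference was -0.16 over the set and -0.01 over all tested genes. It was above 0 for 30 of 159 genes of the set and for 6644 of all 13829 tested genes. By complex it was -0.22 in complex IV, -0.21 in complex III and in the accessory subunits of complex I, -0.19 in ATP synthase, -0.13 in complex I assembly, -0.10 in the core of complex I, -0.09 in complex II and -0.08 in either mitoribosomal subunit. The wild-type libraries also differed between themselves. WT 2 was below WT 1 for 112 of the 159 genes, with a median of -0.11 over the set. Over all 13829 tested genes it was below for 6763, with a median of 0.01. The median of WT 2 minus WT 1 was -0.35 in complex IV and -0.28 in the accessory subunits of complex I. Both were farther from 0 than the fitted K3R3 medians, which use both wild-type libraries, but not than those against WT 1 alone, given below. It was nearer to 0 in complex III (-0.16), ATP synthase (-0.11), the large mitoribosomal subunit (-0.06), complex II (0.04) and complex I assembly (0.09). In the core of complex I (-0.10) and the small mitoribosomal subunit (-0.09) the medians of both differences lay close together. Against WT 1 alone the median of K3R3 was -0.24 over the set, -0.39 in complex IV and -0.32 in the accessory subunits of complex I. Against WT 2 alone it was -0.06 over the set, -0.10 in complex IV and -0.07 in the accessory subunits. Under the totals implied by RPKM the median was 0.10 over all tested genes, -0.03 over the set, -0.10 in complex IV and -0.09 in the accessory subunits of complex I, and it was above 0 in both mitoribosomal subunits, the core of complex I and complex II.

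**Figure D4:**
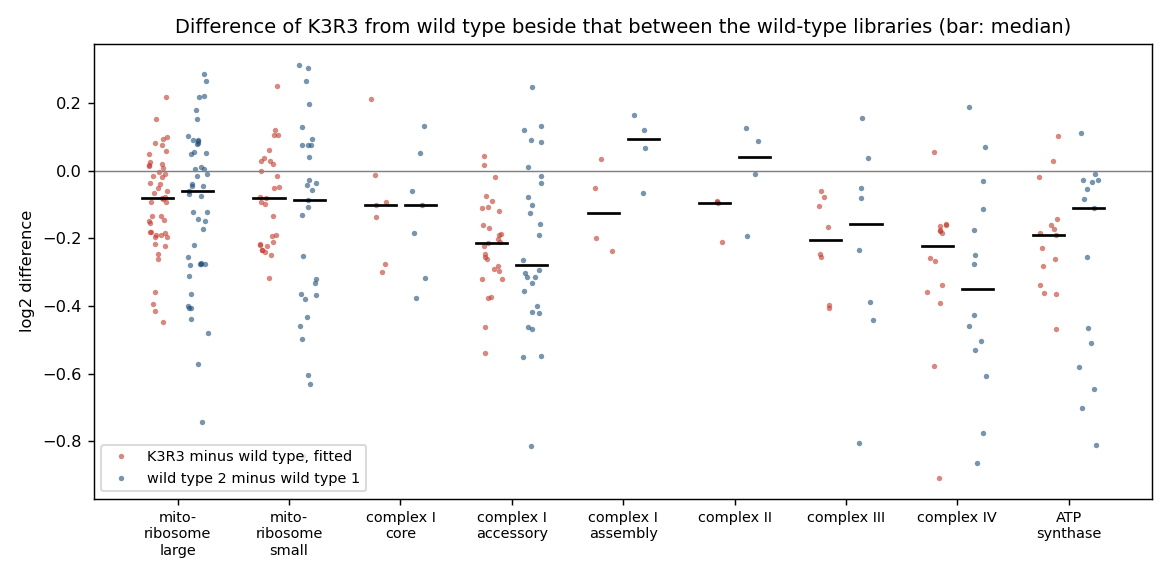
Log2 difference of each tested gene, K3R3 minus wild type as fitted (left points) beside wild type 2 minus wild type 1 (right points), with medians as bars, by complex. In complex IV and the accessory subunits of complex I the medians between the wild-type libraries are -0.35 and -0.28. The fitted medians of K3R3 against both are -0.22 and -0.21. Those of K3R3 against wild type 1 alone are -0.39 and -0.32, and against wild type 2 alone -0.10 and -0.07.

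The differences between K3R3 and wild type were also set out by expression level and gene length. Of the 37 genes of the set at 100 CPM or more, 29 lay below both wild-type libraries (78.4%), where 61.3% of all tested genes at that level did, and their median was -0.18 against -0.13. Of the 105 at 10 to 100 CPM, 52.4% lay below both, against 37.6% of all tested genes at that level. Among the 17 under 10 CPM the share was 35.3% against 17.3%. The 41 genes shorter than 600 bases had a median of -0.24, and all 301 tested genes of that length -0.14. The set is short, with a median length of 940 bases against 2778 bases in the table. The part of level and length in the medians was not tested beyond the following. Relative to all tested genes in the same range, the median of the set was -0.11 by level, -0.09 by length and -0.13 by GC content.

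The difference between the wild-type libraries varied with GC content and with gene length. Genes of the set with a transcript GC content of at least 55% had a median difference of -0.39 between WT 2 and WT 1, and those under 45% had -0.03. Over all tested genes the medians were -0.20 and 0.15. Spearman's rho with GC content across the 159 genes was -0.50 for WT 2 minus WT 1, -0.26 for K3R3 minus WT 1 and 0.38 for K3R3 minus WT 2, and 0.06 for the fitted difference, descriptions across genes of shared libraries. Across the same genes rho with gene length was 0.36 for WT 2 minus WT 1 and 0.36 for K3R3 minus WT 1. It was -0.11 for K3R3 minus WT 2 and 0.19 for the fitted difference. The parts of GC content and length were not tested apart. Cox6a1, with a GC content of 58.8%, had 43.4 CPM in K3R3 against 69.3 and 40.5 CPM in WT 1 and WT 2. Here WT 1 stood apart and K3R3 lay near WT 2, and Cox4i1 showed the same order. Atp5d had 10.3 CPM in K3R3 against 11.5 and 7.69 CPM, so K3R3 lay between the wild-type libraries.

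**Figure D5:**
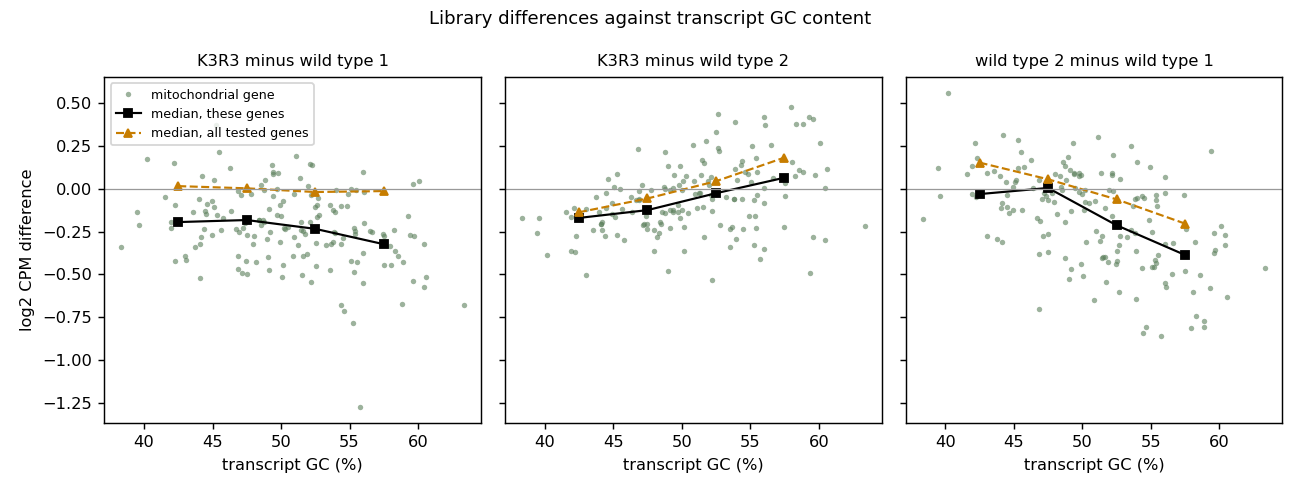
Log2 CPM difference of each tested gene of the set (points) against the GC content of its longest coding transcript, for K3R3 minus wild type 1, K3R3 minus wild type 2 and wild type 2 minus wild type 1. Squares are medians of the set and triangles medians of all tested genes in GC ranges below 45%, 45 to 50%, 50 to 55% and 55% or more, drawn at range centres; the wild-type difference runs from -0.03 to -0.39 in the set and from 0.15 to -0.20 in all genes.

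Other nuclear genes of the same organelle were counted in 8 further lists of 5 to 21 tested genes. By edgeR 0 of their genes were called in either direction, where 2.57% of all tested genes were, so few or no calls would be found in lists of this size at the share of the whole table. Medians were -0.15 for 5 more complex I assembly factors, -0.11 for 13 genes of complex II, III and ATP synthase assembly with cytochrome c, -0.10 for 10 complex IV assembly genes and -0.15 for 17 genes of the tricarboxylic acid cycle. They were -0.03 for 19 factors of mitochondrial DNA, transcription and translation, -0.02 for 17 mitochondrial tRNA synthetases, -0.06 for 21 import and folding genes and -0.03 for 8 regulators of mitochondrial biogenesis, among them the genes of NRF1, GABP and YY1. At an unadjusted p under 0.05 there was 1 gene in the list with cytochrome c and 1 in the tricarboxylic acid cycle, and 0 in the other 6, where the share of all tested genes was 11.2%.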

How the data were processed

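RNA of 1 K3R3 and 2 WT libraries was measured. The authors' deposited counts are whole numbers per gene. The submitters' processing notes name HTSeq 0.5.4p1, DESeq 1.10.1 and mm9. Aligner, annotation and strand setting are not given in the sources used here. No count was below 1. RPKM values, also deposited by the authors, equal the counts over length and a library total, which the values give within a relative deviation of 3.16e-07. Gene length and class code were taken as deposited. The authors' fold changes were not used.

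Counts were fitted with edgeR 4.0.16 in R 4.3.3 (TMM factors, quasi-likelihood test, two-sided, K3R3 against WT, 13829 genes with mean CPM not under 0.5). Prior degrees of freedom were infinite. Single libraries were compared by log2 CPM (prior count 1). Intervals are 1.96 SE. Members, lists and tests were chosen with earlier results of these data known. Named members are, per group, the highest and lowest level and log2 difference, the isoform families and a list of core subunits. GC content and 31-base words came from GENCODE M21 transcripts (the longest coding one per gene; 15126 of 15311 symbols matched). Promoters were from RefSeq. The 3 libraries held 21614693 to 25426228 counts. Alternatives were DESeq2 1.42.0, its size factors, the likelihood ratio test, implied totals, other filters and leaving out a replicate. The single values of 1 member are not reported here.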

Additional observations from a re-analysis of the deposited data

How the results depend on the processing

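No paired analysis was possible because K3R3 has 1 library and no replicate number to match. No member was called under any of the 6 alternative fits (smallest adjusted p 0.207 to 0.857), and 0 of the 53 named members that were tested became called. Over all genes DESeq2 called 59 genes (55.9% higher in K3R3) against 355 (78.9%) with edgeR, and implied totals gave 515 (90.3%). With implied totals, 53 members lay below and 35 above both wild-type libraries. The group medians then became 0.0438 in the large and 0.0440 in the small mitoribosomal subunit, 0.0228 in the core and -0.00186 in the assembly factors of complex I, 0.0298 in complex II, -0.0806 in complex III, -0.0963 in complex IV, -0.0894 in the accessory subunits of complex I, -0.0664 in ATP synthase and -0.0350 over all members, where the median of all genes was 0.10. Relative to genes of the same CPM range the large mitoribosomal subunit had -0.0358 and complex II -0.00533. Without WT replicate 2 and without WT replicate 1 the medians were -0.14 and -0.0507 in the large and -0.17 and -0.0244 in the small mitoribosomal subunit, -0.12 and -0.15 in complex II, -0.36 and -0.0898 in complex III, -0.388 and -0.0970 in complex IV, -0.322 and -0.0654 in the accessory, -0.122 and -0.0612 in the core and -0.0770 and -0.144 in the assembly genes of complex I, -0.29 and -0.13 in ATP synthase, and -0.24 and -0.0612 over all members. The cause of these shifts was not tested. Signs of named members changed in 12 under implied totals, 14 without WT replicate 1 and 6 without WT replicate 2, none of them called. As TMM CPM per kilobase the median levels were 33.7 in the large and 34.1 in the small mitoribosomal subunit, 49.95, 57.4 and 21.7 in the core, accessory and assembly genes of complex I, 106 in complex II, 103 in complex III, 134 in complex IV and 164 in ATP synthase, since counts were 66.2% to 67.1% of the implied totals. Leaving out the 35 genes sharing at least 25% of their 31-base words was chosen after seeing the data, like the implied totals for places. The median RPKM was then 23.6 in the small mitoribosomal subunit and 46.6 in complex III. In complex I it was 36.9 in the core and 42.51 in the accessory genes. The single K3R3 library and counts of 13 or fewer for Cox4i2 and Cox7b2 limit what these data can show.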
